A study of Homo sapiens with 6 samples.

Results

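Imprinted genes are expressed mainly from the allele inherited from one parent. A group of 10 such genes outside the clusters at 11p15 and 14q32 was followed in human nuclei of teratomas: SNRPN, NDN, MAGEL2, PEG3, PEG10, SGCE, MEST, PLAGL1, GRB10 and NNAT. The genes were chosen by symbol among the 38606 human features of the count matrices, and all 10 were found. Their measured values played no part in that choice. The libraries hold no allele information, so the values below are total RNA from both alleles.

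The teratomas were grown from H1, an established human embryonic stem cell line, placed with matrigel in the flank of NSG mice, which lack an adaptive immune system. There were 3 groups by the state of the long non-coding RNA gene LNCPRESS1, namely wild type (WT), knockout (KO) and a ΔATG form (DATG), with 2 libraries each. The labels name no age, no clone and no separate treatment for any group, and separate tumours behind the 2 libraries of a group are not stated, so each p-value measures the spread between libraries only. The tumours were frozen, their nuclei were released on a Singulator, and 3′ ends of RNA molecules were counted as unique molecular identifiers (UMIs).

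Over the 6 libraries 49204 human nuclei were kept, with 22003341 to 35567544 human UMIs per library and a median of 2521 to 3931 UMIs per nucleus. LNCPRESS1 itself had 7 and 2 UMIs in the WT libraries, 2 and 0 in those of KO and 1 and 3 in those of DATG, too few to check the labels. Mitochondrially encoded RNA was 0.512% and 0.526% of human UMIs in DATG and 0.0753% to 0.172% in the other 4 libraries, and DATG replicate 2 had 3649 barcodes of mixed species against 513 to 1095 elsewhere. The DATG comparisons carry these differences, and their part in the results was not tested. Pairs of libraries shared 4 to 33 barcodes, at most 0.366% of the smaller library.

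Imprinting is set in the germ line by DNA methylation at control regions, and the marks are kept through early development by factors such as ZFP57, a zinc finger protein that binds the methylated hexamer TGCCGC. Of the 10 genes, SNRPN, NDN, MAGEL2, PEG3, PEG10, SGCE, MEST, PLAGL1 and NNAT are known for expression from the paternal allele, while the imprinting of GRB10 depends on the tissue. Several are known from disorders of growth and brain function, among them Prader-Willi syndrome for the genes on chromosome 15 and myoclonus-dystonia for SGCE.

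In the GENCODE 29 annotation of GRCh38 all 10 are protein-coding genes. NDN (chr15:23685400-23687330, minus strand) and MAGEL2 (chr15:23643549-23647867, minus strand) have starts 39.5 kb apart, and SNRPN (chr15:24823637-24978723, plus strand) lies further along the same region. PEG10 (chr7:94656325-94669695, plus strand) and SGCE (chr7:94524204-94656572, minus strand) run away from each other from starts 247 bases apart. MEST (chr7:130486171-130506465, plus strand) and GRB10 (chr7:50590063-50793462, minus strand) lie elsewhere on chromosome 7. PLAGL1 (chr6:143940300-144064599, minus strand), NNAT (chr20:37521206-37523693, plus strand) and PEG3 (chr19:56810077-56840728, minus strand) are on chromosomes of their own. The sources used here do not state how introns and strand were handled in the counting, so reads of NNAT and of the gene BLCAP around it, or of PEG10 and SGCE where they overlap, could not be separated further.

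RefSeq promoter windows on GRCh38.p14, each from 250 bases before to 50 bases after a transcript start, matched 6 of the 10 genes with 21 windows. The hexamer TGCCGC, searched on both strands as TGCCGC and GCGGCA, was present in 9 of these 21 windows, some of which overlap, and in 16.7% of all 35116 windows of the same length. The 4 windows below are shown because 2 of them are shared with a neighbouring counted gene and because they hold the hexamer, in capitals, with no other letters marked. They are given 5′ to 3′ on the strand of the gene.
SNRPN and SNURF, chr15:24954737-24955036, plus strand: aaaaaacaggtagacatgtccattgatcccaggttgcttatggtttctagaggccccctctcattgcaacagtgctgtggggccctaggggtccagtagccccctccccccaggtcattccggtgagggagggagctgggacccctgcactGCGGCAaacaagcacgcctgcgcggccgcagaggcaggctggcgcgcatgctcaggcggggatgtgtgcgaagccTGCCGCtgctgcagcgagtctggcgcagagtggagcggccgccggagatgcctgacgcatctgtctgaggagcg
NDN, chr15:23687256-23687555, minus strand: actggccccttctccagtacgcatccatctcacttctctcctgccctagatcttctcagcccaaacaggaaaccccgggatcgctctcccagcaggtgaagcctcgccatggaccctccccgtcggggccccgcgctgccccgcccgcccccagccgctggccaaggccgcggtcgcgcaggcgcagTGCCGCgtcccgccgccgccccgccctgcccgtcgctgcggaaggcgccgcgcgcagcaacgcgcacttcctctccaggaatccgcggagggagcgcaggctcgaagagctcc
PLAGL1 and HYMAI, chr6:144008210-144008509, minus strand: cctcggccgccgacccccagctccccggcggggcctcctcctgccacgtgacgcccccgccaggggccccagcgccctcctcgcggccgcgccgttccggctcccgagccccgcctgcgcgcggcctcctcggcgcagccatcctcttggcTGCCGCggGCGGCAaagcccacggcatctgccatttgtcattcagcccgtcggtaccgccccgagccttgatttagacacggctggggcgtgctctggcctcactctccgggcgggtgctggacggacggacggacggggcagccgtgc
MEST, chr7:130491835-130492134, plus strand: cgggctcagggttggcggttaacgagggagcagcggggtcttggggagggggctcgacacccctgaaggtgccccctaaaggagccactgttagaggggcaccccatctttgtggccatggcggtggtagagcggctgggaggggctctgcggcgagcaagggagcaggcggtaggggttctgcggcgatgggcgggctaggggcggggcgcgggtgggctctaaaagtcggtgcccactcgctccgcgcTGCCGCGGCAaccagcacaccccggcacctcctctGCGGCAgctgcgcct
The shared window of PLAGL1 and HYMAI held 39 CG dinucleotides, more than 91.3% of all windows, and the NDN window held 35. The SNRPN and SNURF window held 18 and the MEST window 25, against a median of 14 over all windows. The hexamer occurred 2 times in the PLAGL1 and SNRPN windows, 3 times in that of MEST and 1 time in that of NDN. A match describes letters only and shows no binding.

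Of the 10 genes, 9 were present at levels that passed the filter on low counts, and PEG3, a zinc finger gene, did not. PEG3 had 1 UMI in each WT library and 0 in the 4 KO and DATG libraries, 2 UMIs in all human nuclei of the series, where 3 UMIs would be 0.0157 CPM (counts per 1000000 UMIs). Neighbours in the PEG3 domain were also near 0. ZIM2, whose annotated start lies 1 base from that of PEG3, had 3 and 5 UMIs in the WT pair, 7 and 0 in the KO pair and 0 and 4 in the DATG pair, USP29 had 0 or 1 UMI in each library and MIMT1 had 0 in all 6. ZNF667, which starts 363 kb away on chromosome 19, had 234 and 308 UMIs in the WT pair, 8 and 5 in the KO pair and 267 and 146 in the DATG pair. PEG3 and its immediate neighbours were close to the counting floor in WT libraries too, and PEG3 was fitted only with no filter on low counts (edgeR adjusted p = 1 in all 3 comparisons) and by DESeq2, which gave it no adjusted p.

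For the other 9 genes the level in each library is given first in CPM, that is UMIs per 1000000 human UMIs, scaled by the trimmed mean of M values (TMM). In such sums over all nuclei, fewer cells of a type and less RNA per cell cannot be told apart. SNRPN, which codes for the splicing protein SmN, stood at 79.2 and 94.1 in the WT pair, 125.0 and 119 in the KO pair and 124 and 73.7 in the DATG pair. Both KO libraries lay above both WT libraries, and the DATG pair spanned nearly the whole range of the other 4. NDN, the MAGE family gene of the growth suppressor necdin, stood at 6.10 and 19.7 in the WT pair, 16.9 and 13.8 in the KO pair and 33.5 and 6.88 in the DATG pair. The DATG pair alone covered nearly the whole range of NDN, and WT replicate 1 was the lowest library. MAGEL2, a MAGE family partner of ubiquitin ligases, was low throughout, with 1.63 and 5.21 in the WT pair, 2.96 and 3.26 in the KO pair and 3.84 and 3.31 in the DATG pair.

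PEG10, derived from a retrotransposon and needed for the placenta, stood at 22.3 and 47.3 in the WT pair, 36.8 and 36.7 in the KO pair and 56.4 and 42.3 in the DATG pair. The WT pair enclosed the KO pair and the lower DATG library. SGCE, the membrane protein epsilon-sarcoglycan, stood at 126 and 195 in the WT pair, 210 and 188 in the KO pair and 168 and 132 in the DATG pair. Here both DATG libraries lay below both KO libraries and inside the WT range. MEST, an enzyme of the alpha/beta hydrolase fold, stood at 105 and 176 in the WT pair, 101 and 147 in the KO pair and 202 and 162 in the DATG pair. DATG lay above KO in every pair of libraries, while WT overlapped both.

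PLAGL1, a zinc finger transcription factor also known as ZAC1, stood at 394 and 506 in the WT pair, 245 and 367 in the KO pair and 259 and 554 in the DATG pair. Both KO libraries were below both WT libraries, and DATG held a value on either side. GRB10, an adaptor that dampens signalling from insulin and IGF receptors, stood at 146 and 146 in the WT pair, 104 and 159 in the KO pair and 90.1 and 208 in the DATG pair. The WT values were nearly equal and lay between the libraries of both other groups. NNAT, the small membrane protein neuronatin of developing neurons and endocrine cells, stood at 82.1 and 124 in the WT pair, 225 and 156 in the KO pair and 213 and 25.6 in the DATG pair. Its highest library was 8.77 times its lowest, the widest range of the 9 genes, and SGCE with 1.66 had the narrowest.

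**Figure D1:**
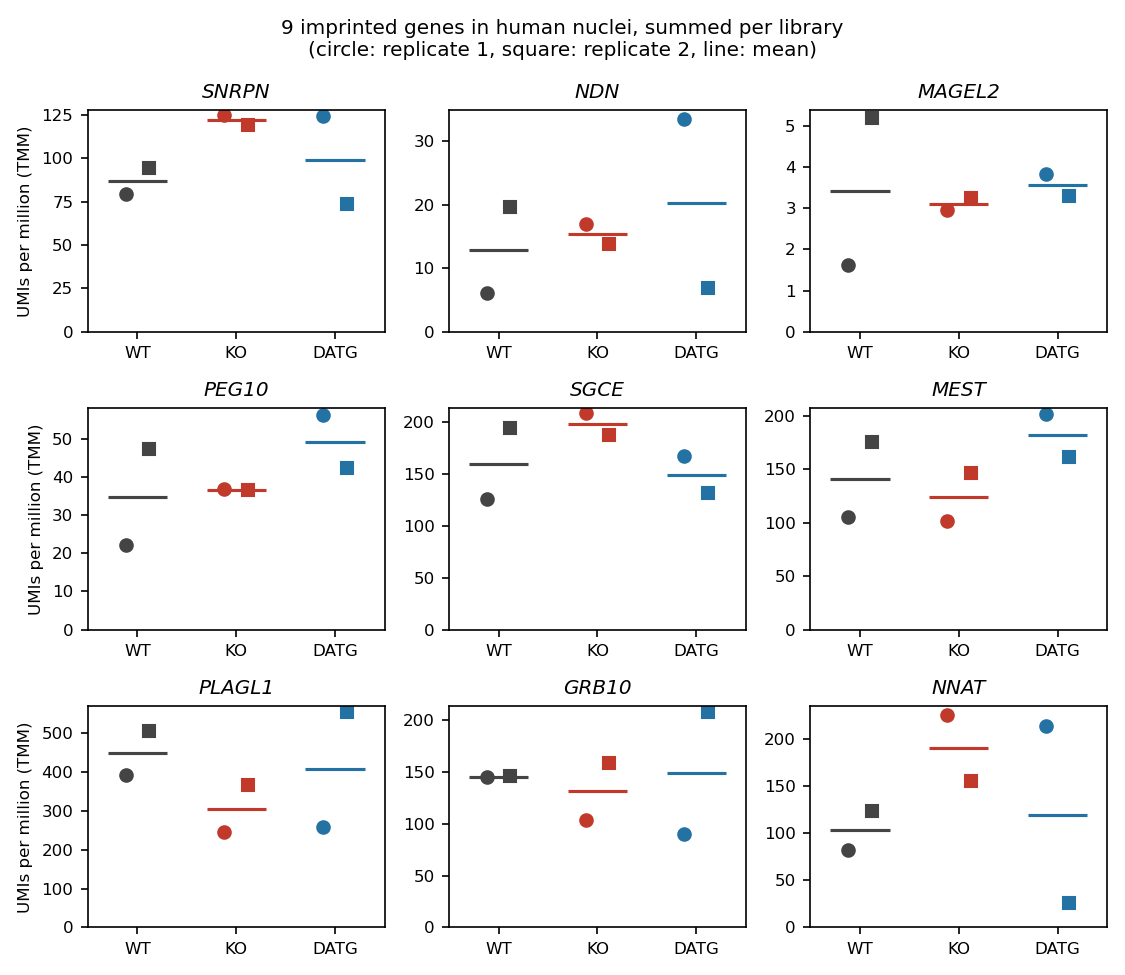
Level of 9 imprinted genes in each of the 6 libraries, in CPM scaled by TMM, with the group on the x axis, circles for replicate 1, squares for replicate 2 and a line at the mean. The DATG pair lies far apart for NNAT (213 and 25.6), NDN (33.5 and 6.88) and PLAGL1 (259 and 554), while both KO values exceed both WT values for SNRPN and NNAT and lie below them for PLAGL1.

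In KO against WT none of the 9 genes passed the test (edgeR quasi-likelihood F test, Benjamini-Hochberg adjusted p under 0.05), beside 0 of 26552 genes over the whole table, that is 0%. At an unadjusted p under 0.05 there were 0 of the 9, where 4.63% of all genes stood, and DESeq2 also called 0 of the 9 while calling 0.597% of all genes. The largest differences were NNAT at a log2 fold change of 0.89 (SE 0.87), PLAGL1 at -0.56 (SE 0.42) and SNRPN at 0.50 (SE 0.29), each with an edgeR adjusted p of 1.00. The median log2 fold change of the 9 was 0.08 with 5 above 0, and over all genes tested it was 0.01 with 51.5% above 0. A count of groups that do not overlap gave 3 of 9 (SNRPN and NNAT higher in KO, PLAGL1 lower), where 44.8% of all genes at 1 CPM or more did not overlap.

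Without the 2 DATG libraries the spread between libraries was smaller, with a biological coefficient of variation of 23.9% against 38.5% over all 6. In that fit 1.87% of all genes passed the threshold, and of the 9 imprinted genes again none did. At an unadjusted edgeR p under 0.05 there were 2 of the 9, where 15.7% of all genes stood. NNAT came to 0.86 (SE 0.26, unadjusted p = 0.0112, adjusted p = 0.152 in edgeR), SNRPN to 0.48 (SE 0.19, adjusted p = 0.276) and PLAGL1 to -0.57 (SE 0.26, adjusted p = 0.330).

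In DATG against WT 0 of the 9 genes passed, beside 0% of all genes, with 0 of 9 and 2.98% at an unadjusted p under 0.05. DESeq2 called 0 of the 9 and 0.335% of all genes. NDN had a log2 fold change of 0.65 (SE 0.82), PEG10 of 0.51 (SE 0.38) and MEST of 0.37 (SE 0.33), and the 9 together had a median of 0.19 with 7 above 0, against 0.03 and 52.8% over all genes. No gene of the 9 had groups that did not overlap, where 22.2% of all genes did.

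In DATG against KO 0 of the 9 genes passed, beside 0% of all genes, with 0 of 9 and 6.08% at an unadjusted p under 0.05. DESeq2 called 0 of the 9 and 0.327% of all genes. NNAT had a log2 fold change of -0.67 (SE 0.86), MEST of 0.55 (SE 0.33), PEG10 of 0.43 (SE 0.38) and SGCE of -0.41 (SE 0.28). MAGEL2, PEG10 and MEST lay higher in both DATG libraries and SGCE lower, 4 of 9 that did not overlap where 42% of all genes did not. The 3 comparisons share libraries in pairs, so their values for a gene are not independent of each other.

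**Figure D2:**
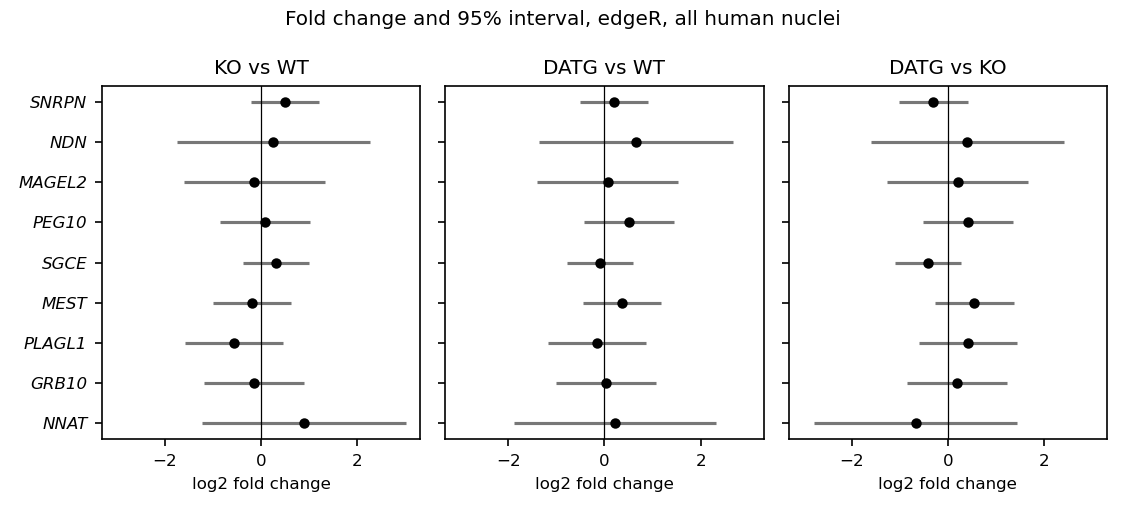
Log2 fold change of 9 imprinted genes (points) with the 95% interval (lines) in the 3 comparisons, from the edgeR fit on sums over all human nuclei. Every interval includes 0, and those of NNAT and NDN are the widest, from -1.23 to 3.002 for NNAT in KO against WT.

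The DATG values of NNAT rested on the replicate. Without DATG replicate 1, NNAT passed the threshold in DATG against WT (log2 fold change -2.04, edgeR adjusted p = 0.0130) and against KO (-2.90, adjusted p = 0.00175), in fits that called 8.51% and 23.9% of all genes. Without DATG replicate 2, NNAT did not pass in either comparison, in fits that called 0.378% and 0.0108% of all genes. The lone library left in DATG is assumed in such a fit to vary like the other groups.

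Other imprinted genes were read from a list of 72 symbols, of which 65 were in the files and 60 passed the filter. With all 6 libraries, none of the 60 passed the edgeR test in any of the 3 comparisons, and DESeq2 called 0 as well. At an unadjusted edgeR p under 0.05 there were 1 of 60 in KO against WT, 1 in DATG against WT and 2 in DATG against KO, where 4.63%, 2.98% and 6.08% of all genes stood. DESeq2 had 5 of 59, 2 of 59 and 7 of 58 tested genes of the list there, and 6.17%, 3.87% and 10% of all genes. Without DATG replicate 1, edgeR called 3 of the 60 in DATG against WT (PON1, LPAR6 and MKRN3, all lower) and 10 in DATG against KO (5 in each direction), where it called 8.51% and 23.9% of all genes. In KO against WT it called CRYBG1 alone without either DATG library, where 2.45% (without replicate 1) and 2.23% (without replicate 2) of all genes were called. The 3 genes lower in DATG were chosen after their values were seen. In KO against WT the smallest unadjusted edgeR p-values among the 60 belonged to DDC at -1.41 (SE 0.50, adjusted p = 1.00), SGK2 at -0.99 (SE 0.41) and CRYBG1 at -1.43 (SE 0.62). DDC lies beside GRB10 and codes for a decarboxylase of monoamine synthesis. CRYBG1 was the 1 gene of the list that passed in the 4-library fit of KO against WT. HYMAI is a non-coding RNA that shares a promoter window with PLAGL1, although the annotated starts of the 2 genes lie 56.3 kb apart. HYMAI had the smallest p in DATG against WT, at -0.66 (SE 0.23, edgeR adjusted p = 1.00), and stood at -0.70 (SE 0.23, adjusted p = 0.676) in DATG against KO. HYMAI levels were 44.8 and 60.7 in the WT pair, 54.6 and 53.2 in the KO pair and 34.2 and 32.4 in the DATG pair, so the DATG libraries lay below the other 4, which was not the pattern of PLAGL1. The others named by the rule were NAP1L5 at 1.28 (SE 0.55) and LPAR6 at -1.04 (SE 0.56) in DATG against WT, and LIN28B at -0.89 (SE 0.25) and LPAR6 at -1.36 (SE 0.57) in DATG against KO. None of these passed after adjustment over all genes by edgeR.

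Nuclei were then grouped into 31 clusters without using the 10 genes or the listed imprinted genes, and 27 clusters took 1 of 17 class names from marker genes. The names end in "-like", since the markers were read from RNA and no annotation by the authors was used, and 21.2% of nuclei stayed unnamed. Levels by class are plain CPM of the class in a library, for classes with at least 50 nuclei there. Class means can thus rest on different libraries, and they then carry the differences between those libraries. Classes of a library share its nuclei and depth, so the order of classes is a description with no test. Only named classes were ranked, so highest and lowest refer to these, and unnamed clusters are cited by number. In 27 pairs formed by 9 genes and the mesenchyme-like, neural progenitor-like and neuron-like classes, 14 pairs had the same class higher in all 6 libraries.

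SNRPN was high in neuron-like nuclei, at 200, 229, 249, 236, 264 and 217 CPM in WT 1 and 2, KO 1 and 2 and DATG 1 and 2. The values varied little over libraries, 233 ± 22.8 (SD, n = 6), and lay above the remaining nuclei in 6 of 6 libraries. The clusters of this class differed, at 235 to 327 over libraries in cluster 19 and 291 to 319 in cluster 20. Cluster 15 stood at 120 to 202 and cluster 26 at 88.4 to 124. Smooth muscle and pericyte-like nuclei were equally high at 233 ± 30.3 (SD, n = 5) and skeletal muscle-like nuclei stood at 196 ± 37.2 (SD, n = 2), so these 3 classes did not differ beyond their spread. Mesenchyme-like nuclei stood at 51.5 ± 10.1 (SD, n = 6), below the rest in all 6 libraries, and neural progenitor-like nuclei between, at 105 ± 10.4. The ratio of neuron-like to mesenchyme-like means was 4.51. The lowest class was macrophage and immune-like, at 14.8 ± 11.02 (SD, n = 2) on 6 UMIs.

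NNAT was also higher in neural classes. It stood at 363 ± 115 (SD, n = 6) in neuron-like, 174 ± 72.1 in neural progenitor-like and 65.4 ± 43.6 in mesenchyme-like nuclei, in this order in 6 of 6 libraries. Skeletal muscle-like nuclei stood at 385 ± 2.48 (SD, n = 2), in KO replicate 1 and DATG replicate 1 only, and that class held 200 nuclei in all. In these 2 libraries in turn, neuron-like cluster 15 stood at 665 and 555 and cluster 19 at 547 and 505. Neuron-like cluster 20 stood there at 374 and 550 and cluster 26 at 152 and 188. The lowest class mean was general epithelium-like at 15.01 ± 5.599 (SD, n = 2), from WT replicate 2 and DATG replicate 2 only. The genes with the class pattern most like that of NNAT, among 8643 candidates and over 17 classes, were DCX (r = 0.93) and DCLK1 (r = 0.92), the former of which was a marker used to name neuron-like clusters.

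PLAGL1 differed from SNRPN and NNAT in neuron-like nuclei. Over the 17 classes its correlation was r = 0.21 with NNAT and r = -0.01 with SNRPN. Of the named classes it was highest in neural progenitor-like nuclei, at 619 and 672 in the WT pair, 556 and 540 in the KO pair and 491 and 604 in the DATG pair. In neuron-like nuclei it was low, at 119 ± 27.6 (SD, n = 6). The means differed 4.88-fold, with the progenitors higher in 6 of 6 libraries. Unnamed cluster 7 stood above the progenitors, at 825 and 1045 in WT, 836 in KO replicate 2 and 756 and 955 in DATG. KO replicate 1 had fewer than 50 nuclei of cluster 7. Mesenchyme-like nuclei overlapped the progenitors with 468 ± 247 (SD, n = 6) and choroid plexus-like nuclei with 361 ± 96.4, and the widest spread between libraries was thus in the mesenchyme-like class. HYMAI was the gene most like PLAGL1 over classes (r = 0.84, 17 classes), at 88.0 ± 27.9 in neural progenitor-like and 16.5 ± 4.01 in neuron-like nuclei (SD, n = 6). MAP2K5 was the next (r = 0.72).

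GRB10 was set apart in endothelial-like nuclei, with 514 and 1049 in WT and 1107 in DATG replicate 2, the 3 libraries with enough such nuclei, a mean of 890 ± 327. No other class reached these levels: the next was hepatocyte or yolk sac-like at 259 ± 35.1 (SD, n = 4), followed by pigment cell-like at 234 ± 45.3 (SD, n = 4). Neural progenitor-like nuclei stood above neuron-like ones in 6 of 6 libraries, at 182 ± 50.1 against 128 ± 23.2. Macrophage and immune-like nuclei were lowest at 27.9 ± 20.2 (SD, n = 2). PTPN4 had a similar class pattern (r = 0.86).

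PEG10 and SGCE, with starts 247 bases apart, both stood higher in neural classes than in most others but did not share their highest class. PEG10 was highest in skeletal muscle-like nuclei, at 145 in KO replicate 1 and 177 in DATG replicate 1, and no other named class overlapped these values. Unnamed cluster 14 did overlap them, at 85.9 in KO replicate 1, 167 in KO replicate 2 and 182 in DATG replicate 1. This cluster was shallow, with a median of 1016 UMIs per nucleus, and was led by HBE1, HBG2 and HBA2, with HSPA1A and HSPA1B among its leading genes. Of the named classes, neuron-like nuclei followed at 64.5 ± 24.9 and neural progenitor-like nuclei at 49.6 ± 14.1 (SD, n = 6), both above the rest in 6 of 6 libraries. SGCE was highest in floor plate and notochord-like nuclei at 243 ± 54.8 (SD, n = 5), but 8 other classes overlapped that range, choroid plexus-like nuclei at 214 ± 66.2 (SD, n = 6) among them. Over the 17 classes the correlation of PEG10 with SGCE was r = 0.71, on points that share libraries and depth. DNAJA1 (r = 0.87) and RIPOR2 (r = 0.84) were most like PEG10, and DIRC3-AS1 (r = 0.89) had a pattern like that of SGCE.

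MEST was highest, of the named classes, in pancreas-like nuclei, at 247 ± 90.01 (SD, n = 2), with general epithelium-like at 210 ± 47.7 (SD, n = 2) and mesenchyme-like at 178 ± 47.8 (SD, n = 6) overlapping that range. Unnamed cluster 7 overlapped it too, at 179 and 312 in WT, 277 in KO replicate 2 and 522 and 214 in DATG. Mesenchyme-like nuclei exceeded neuron-like nuclei, at 108 ± 35.8, in 6 of 6 libraries. Endothelial-like nuclei were lowest at 41.6 ± 11.03 (SD, n = 3). The gene with the most similar class pattern was COPG2IT1 (r = 0.88), a transcript of the MEST and COPG2 locus, and the next was CDH10 (r = 0.74).

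NDN differed little between named classes compared with its spread over libraries. Its 17 class means ran from 2.26 in macrophage and immune-like nuclei, on 1 UMI, to 23.6 ± 15.3 (SD, n = 5) in smooth muscle and pericyte-like nuclei, and 15 classes overlapped the range of the highest. In neuron-like nuclei NDN stood at 9.36 and 24.3 in the WT pair, 18.9 and 14.9 in the KO pair and 35.3 and 4.48 in the DATG pair. Unnamed cluster 14 was higher in every library, at 37.1 and 65.5 in the WT pair, 48.2 and 50.9 in the KO pair and 98.0 and 12.8 in the DATG pair. ELOB (r = 0.93) and DYNLT1 (r = 0.92) were most like NDN. MAGEL2 was higher in neuron-like than in mesenchyme-like nuclei in 6 of 6 libraries, at 6.10 ± 2.48 against 2.42 ± 1.14 (SD, n = 6). Its highest mean of the named classes, in macrophage and immune-like nuclei, rested on 3 UMIs. In unnamed cluster 14 MAGEL2 stood at 7.17 to 25.0 over the 6 libraries. BRWD3 (r = 0.82) and C2CD5 (r = 0.81) were most like MAGEL2, and KCND3 (r = 0.84) and ACAT2 (r = 0.83) most like SNRPN.

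**Figure D3:**
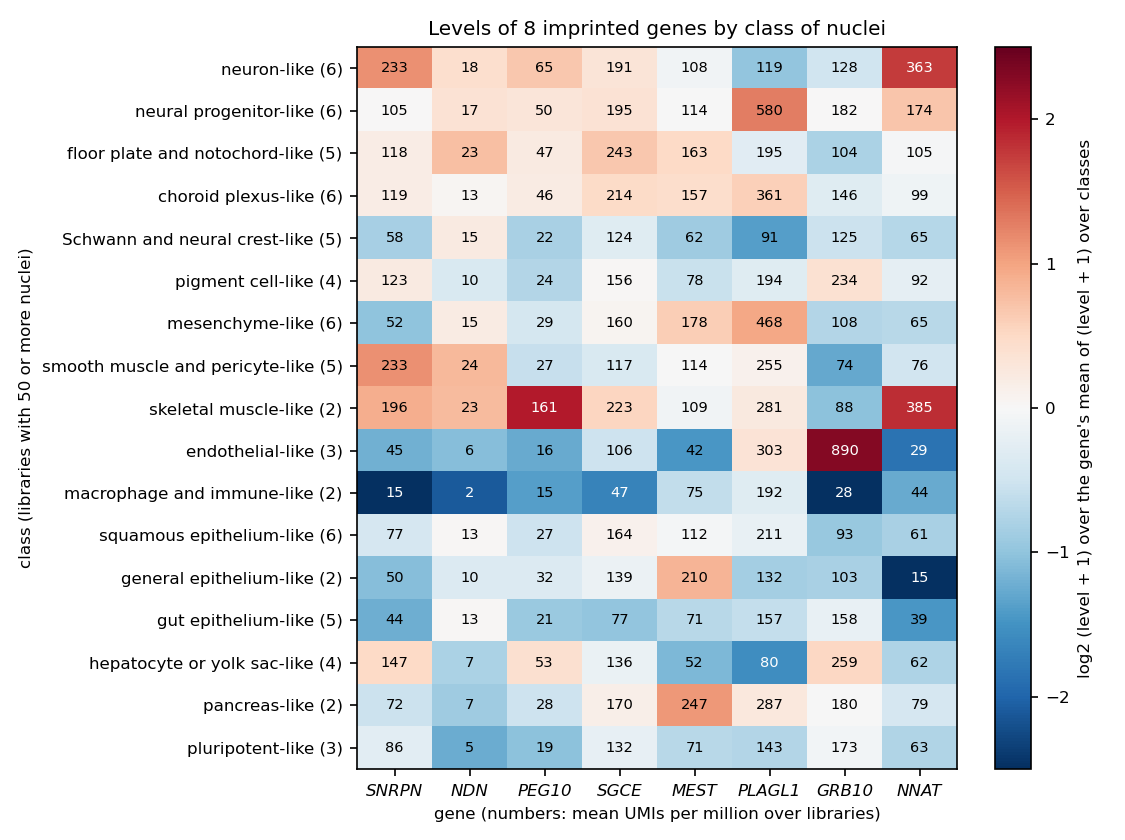
Mean level of 8 imprinted genes (columns) in 17 named classes of nuclei (rows, with the number of libraries holding 50 or more nuclei), printed in CPM and coloured by the log2 ratio to the mean of the gene over classes, with the colour held at 2.5 either way. Unnamed nuclei are not shown. GRB10 stands out in endothelial-like nuclei (890), PEG10 in skeletal muscle-like (161), PLAGL1 in neural progenitor-like (580) and NNAT in skeletal muscle-like (385) and neuron-like nuclei (363), while SNRPN is at 233 in both neuron-like and smooth muscle and pericyte-like nuclei.

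Differences between the 2 libraries of a group ran through many classes at once. In DATG, 6 named classes had enough nuclei in both libraries, and NDN, NNAT and SGCE were higher in replicate 1 in 6 of 6 classes while GRB10 was higher in replicate 2 in 6 of 6. The median ratio of replicate 1 to 2, with 1 CPM added to both, was 5.36 for NDN, 3.47 for NNAT and 1.31 for SGCE. NNAT in mesenchyme-like nuclei stood at 104 in DATG replicate 1 and 8.07 in replicate 2, and at 44.8 to 128 in the other 4 libraries. In neuron-like nuclei DATG replicate 2 had 189 against 301 to 491 in the other 5. NNAT was thus lowest in DATG replicate 2 in each of the 5 classes present in all 6 libraries, and GRB10 was highest there.

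The WT pair differed in the same manner for other genes. Among 13 classes with enough nuclei in both libraries, replicate 2 was higher for NDN in 13, for SGCE, MEST and NNAT in 12 and for PEG10 in 11. The median ratio of replicate 2 to 1 was 2.499 for NDN, 1.996 for PEG10 and 1.63 for SGCE. In KO, GRB10 was higher in replicate 2 in 9 of 9 classes, with a median ratio of 1.39.

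**Figure D4:**
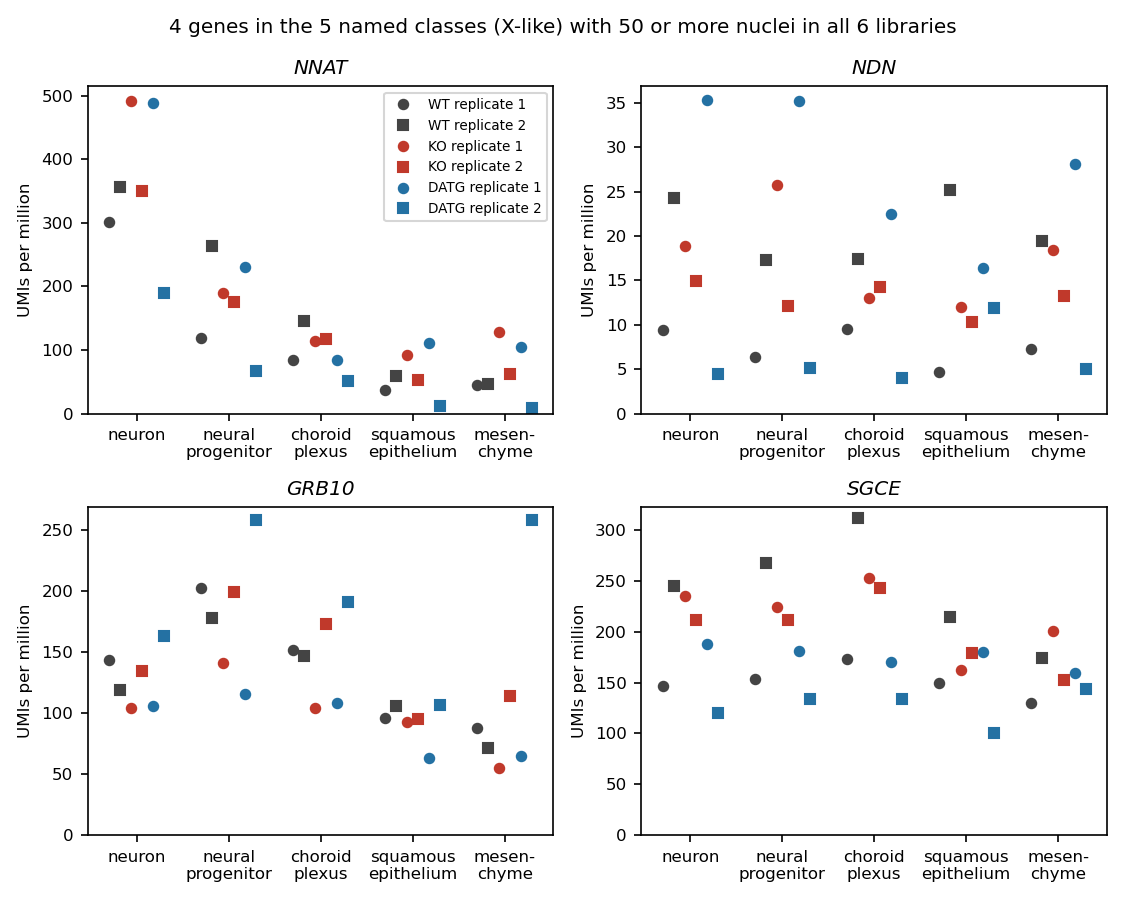
Level of NNAT, NDN, GRB10 and SGCE, in CPM, in the 5 named classes that held 50 or more nuclei in all 6 libraries (x axis), with 1 point per library. DATG replicate 2 (blue squares) has the lowest NNAT and the highest GRB10 of the 6 libraries in all 5 classes, such as NNAT at 8.07 in mesenchyme-like nuclei.

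Group comparisons within classes were made for the 3 classes with the largest minimum number of nuclei per library: mesenchyme-like (924), neuron-like (284) and neural progenitor-like (220). In mesenchyme-like nuclei edgeR called 0 of 9 genes and 0% of 19188 tested genes in each of the 3 comparisons, in neuron-like nuclei 0 of 9 and 0% of 17875, and in neural progenitor-like nuclei 0 of 9 and 0% of 16272. DESeq2 called 0 of the 9 in each of these, while calling 0.63%, 0.412% and 0.0883% of all genes in mesenchyme-like nuclei (KO against WT, DATG against WT and DATG against KO in turn), 0.00938%, 0.0188% and 0.0125% in neuron-like and 0.0238%, 0.103% and 0% in neural progenitor-like nuclei. At an unadjusted p under 0.05 there were 3 differences in all, PLAGL1 in mesenchyme-like nuclei and PEG10 in neuron-like nuclei in 2 comparisons.

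PEG10 in neuron-like nuclei stood at 35.0 and 65.8 in the WT pair, 53.2 and 45.5 in the KO pair and 90.2 and 97.4 in the DATG pair. Both DATG libraries lay above the other 4. The log2 fold change was 0.93 (SE 0.32, edgeR adjusted p = 1.00) in DATG against WT and 0.95 (SE 0.31, adjusted p = 1.00) in DATG against KO. Both had an unadjusted p under 0.05, where 1.83% and 2.06% of all genes stood. The largest cluster of neuron-like nuclei was cluster 19 in WT replicate 1, KO replicate 1 and both DATG libraries and cluster 15 in the others. In cluster 15 PEG10 stood at 37.9 and 109 in the WT pair, 59.8 and 51.9 in the KO pair and 80.4 and 74.3 in the DATG pair, so WT replicate 2 lay above both DATG libraries. Within this cluster the log2 fold change was 0.05 (SE 0.44, 95% interval -0.94 to 1.03) in DATG against WT and 0.47 (SE 0.43, interval -0.49 to 1.42) in DATG against KO. In cluster 19 PEG10 stood at 35.6 and 78.9 in the WT pair, 64.4 and 48.6 in the KO pair and 82.6 and 105 in the DATG pair. Here both DATG libraries lay above the other 4, with a log2 fold change of 0.74 (SE 0.39, interval -0.14 to 1.62) against WT and 0.73 (SE 0.37, interval -0.11 to 1.58) against KO.

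PLAGL1 in mesenchyme-like nuclei stood at 597 and 857 in the WT pair, 196 and 327 in the KO pair and 277 and 553 in the DATG pair. Both WT libraries lay above the other 4. The log2 fold change of KO against WT was -1.47 (SE 0.51, unadjusted p = 0.0268, edgeR adjusted p = 0.886), where 5.35% of all genes stood at an unadjusted p under 0.05. The class was filled by different clusters: cluster 3, led by C7 and ADAMTS14, held 50.8% and 67.7% of the WT nuclei, cluster 4, led by ALDH1A2, 48.9% and 44.3% of the KO nuclei, cluster 16, with TBX15 and SHOX among its leading genes, 60.2% in DATG replicate 1 and cluster 24 60.5% in DATG replicate 2.

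PLAGL1 differed between these clusters in the same library. In cluster 3 it stood at 859 and 1064 in WT, 874 in KO replicate 2 and 864 and 999 in DATG, while KO replicate 1 had fewer than 50 such nuclei. In cluster 4 it stood at 221 and 306 in the WT pair, 205 and 298 in the KO pair and 201 and 352 in the DATG pair. Cluster 3 was above cluster 4 in 5 of 5 libraries. Within cluster 4 the log2 fold change of KO against WT was -0.04 (SE 0.34, 95% interval -0.80 to 0.72), and within cluster 16 it was -0.26 (SE 0.31, interval -0.94 to 0.42). In neural progenitor-like clusters 0 and 2 it was -0.16 (SE 0.21) and -0.23 (SE 0.28). Cluster 5, with 50 or more nuclei in the KO libraries only, stood at 91.9 and 325. No fit was made within clusters 3 and 5, and the part of the cluster mix in the class difference was not tested.

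**Figure D5:**
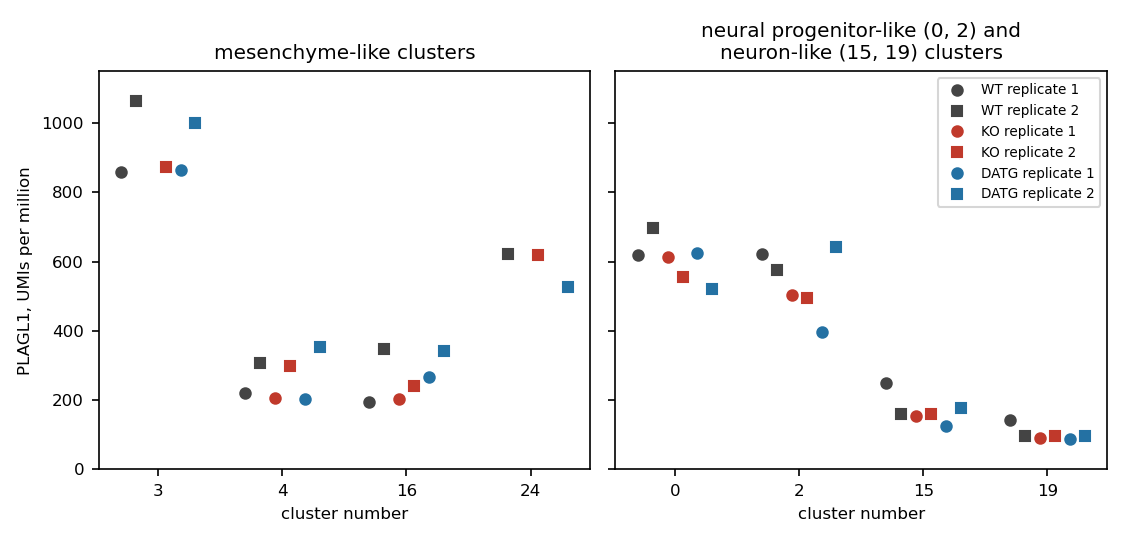
Level of PLAGL1, in CPM, in 4 mesenchyme-like clusters (left) and in neural progenitor-like and neuron-like clusters (right), with 1 point per library that held 50 or more nuclei of the cluster. Cluster 3 lies at 859 to 1064 and cluster 4 at 201 to 352 in every group, and the groups overlap within each of these 2 clusters.

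In mesenchyme-like nuclei DATG replicate 2 was high in GRB10 and low in NNAT, and cluster 24 held most of its nuclei of this class. In cluster 24 GRB10 stood at 277 in WT replicate 2, 412 in KO replicate 2 and 307 in DATG replicate 2, against 45.7 to 91.0 over the 6 libraries in cluster 4. NNAT in cluster 24 stood at 25.8, 9.41 and 2.65 in the same 3 libraries. Over the mesenchyme-like class without DATG replicate 1, GRB10 passed the threshold in DATG against WT (log2 fold change 1.94, edgeR adjusted p = 0.0464) and against KO (1.85, adjusted p = 0.0303), as did NNAT (-2.25, adjusted p = 0.0394, and -3.27, adjusted p = 0.00899), with 3.76% and 11.4% of all genes called. Within mesenchyme-like clusters 3, 4 and 16 DATG replicate 2 was again the highest library for GRB10, at 109 against 45.4 to 71.5 in cluster 3 (4 other libraries), 91.0 against 45.7 to 79.7 in cluster 4 and 94.5 against 25.8 to 91.4 in cluster 16. It was also the lowest for NNAT, at 21.4 against 33.5 to 58.1 in cluster 3, 26.4 against 71.4 to 134 in cluster 4 and 35.5 against 44.6 to 122 in cluster 16. In neural progenitor-like clusters 0 and 2 DATG replicate 2 was likewise highest for GRB10 and lowest for NNAT. In neuron-like cluster 15 it was lowest for NNAT but not highest for GRB10, at 124 against 91.3 to 152. In neuron-like cluster 19 it was highest for GRB10 but not lowest for NNAT, at 215 against 214 in WT replicate 1. The part of the cluster mix in the class values was not tested.

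A fixed mix, with the 5 classes present in all 6 libraries weighted by their mean shares, gave each library the same shares of these classes. The clusters inside a class still differed between libraries, as given above for mesenchyme-like nuclei, which carried 46.3% of the weight. At this mix PLAGL1 stood at 484 and 587 in the WT pair, 252 and 325 in the KO pair and 267 and 434 in the DATG pair, so both other groups lay below WT, with a log2 ratio of -0.89 for KO and -0.61 for DATG. No other gene of the 9 had groups that did not overlap in those 2 comparisons, against 34.8% and 25.1% of all genes. In DATG against KO, MAGEL2 and PEG10 lay higher and SGCE lower, 3 of 9 where 34.1% of all genes did not overlap. SNRPN and NNAT, which did not overlap between KO and WT in the plain sums, overlapped at the fixed mix. SNRPN stood at 95.1 and 113.37 in WT and 118 and 113.32 in KO, so its overlap rested on a near tie. NNAT stood at 118 and 164 in WT and 216 and 151 in KO. The plain sums were scaled by TMM and the fixed mix was not. With clusters in place of classes the log2 ratios of PLAGL1 came to -0.21 for KO and -0.20 for DATG, and both groups still lay below WT without overlap. That mix held clusters 0, 2, 4, 12, 15, 16, 19 and 21, so mesenchyme-like clusters 3, 5 and 24 were left out. These are levels with no test.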

How the data were processed

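Single-nucleus RNA was measured in 6 libraries (WT, KO and DATG, 2 each). The authors deposited raw UMI counts per gene and barcode, not normalized, from Cell Ranger, named as version 8.0.1 in the submitters' processing notes and 8.0.0 per the file headers, on a joint human and mouse reference. Barcodes with at least 500 UMIs, 300 genes and 90% human UMIs were kept as human nuclei, and called doublets (5.20% to 10.8% per library, scored with scrublet in scanpy 1.11.5) were left out. Clusters (2000 variable genes, 30 principal components, 20 neighbours, Leiden resolution 1) were built without the imprinted and mitochondrial genes. A cluster was named from at least 3 markers 2-fold above the other clusters, and it stayed unnamed where its median UMIs fell too far below those of its libraries. 1 cluster with markers of 2 classes was split again.

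Counts were summed per library, or per class and library, and tested in edgeR 4.0.16 under R 4.3.3 (robust quasi-likelihood F test) after TMM scaling and the default filter on low counts, over all 6 libraries and Benjamini-Hochberg adjustment over all genes. DESeq2 1.42.0 was an alternative, with others below. Simulated counts for KO against WT held 26552 genes. The test recovered 3 of 83 at a 2-fold change, 36 of 58 at 4-fold and 55 of 59 at 8-fold, and 5 unchanged genes were called. Named genes were all 10 imprinted genes, of the other listed ones the 3 with the smallest p per comparison, and per gene the 2 with the highest Pearson r of mean log2 (CPM + 1) over classes, at a mean of 20 CPM or more. The 10 genes, the lists, the markers and the rules were chosen with earlier results of these data known. Some genes that the rule on likeness names are not reported here. Mouse nuclei were not used here.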

Additional observations from a re-analysis of the deposited data

How the results depend on the processing

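The count of the 9 tested genes that passed was 0 in each comparison, over all nuclei and within the 3 classes, with DESeq2, with only the 4 libraries of a comparison, within single clusters (an alternative chosen after seeing the data) and with the replicate block, and over all nuclei also with RLE scaling, no filter on low counts, at least 1000 UMIs per nucleus, at least 95% human UMIs, or doublets kept. Leaving out 1 library at a time, the count ranged from 0 to 1 over all nuclei and from 0 to 2 within classes in both DATG comparisons, the higher value each time without DATG replicate 1, and stayed at 0 in KO against WT. Of 405 alternative values for 30 fold changes, 379 kept direction and side of the threshold, 1 passed it with its sign kept (NNAT in DATG against KO without DATG replicate 1) and 25 changed sign, 23 of them with a library left out. Of the sign changes, NNAT in DATG against WT without DATG replicate 1 also passed.

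With a library left out, log2 fold changes that changed sign ran as follows. In KO against WT they ran from -0.36 to 1.33 for NDN, from -0.74 to 0.93 for MAGEL2, from -0.36 to 0.72 for PEG10, from -0.50 to 0.23 for MEST and from -0.49 to 0.13 for GRB10. In DATG against WT they ran from -0.27 to 0.52 for SNRPN, from -0.94 to 1.73 for NDN, from -0.54 to 1.13 for MAGEL2, from -0.38 to 0.25 for SGCE, from -0.80 to 0.26 for PLAGL1, from -0.70 to 0.47 for GRB10 and from -2.04 to 1.05 for NNAT. In DATG against KO they ran from -0.75 to 0.042 for SNRPN, from -1.17 to 1.14 for NDN, from -0.22 to 0.84 for PLAGL1, from -0.53 to 0.64 for GRB10 and from -2.90 to 0.19 for NNAT. The cause was not tested.

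Libraries share only a replicate number: deviations from the group means of same-numbered libraries correlated at 0.09 for WT and KO, -0.15 for WT and DATG and 0.44 for KO and DATG over 20974 genes, so not every library lay nearest to its own number. With the replicate block 0 genes of all tested were called in each comparison, as without it, and GRB10 (-0.091) and NNAT (-0.27) changed sign in DATG against WT. The 14 class pairs that ran one way in all 6 libraries became 15 at Leiden resolution 0.5 (13 shared) and 16 with imprinted genes allowed in the clustering (14 shared). At a fixed mix, 5 differences that did not overlap stayed 5 with equal weights and were 4 with clusters. With 2 libraries a group, 2-fold changes were seldom called in simulated data.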
